A study of Mus musculus with 9 samples.

Results

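The integrated stress response was followed through 9 genes: Atf4, Ddit3 (the gene of CHOP), Atf5, Trib3, Ppp1r15a, Asns, Chac1, Sesn2 and Ddit4. They were picked by symbol, with earlier results of these data known. Every probe set annotated to 1 of these symbols alone was taken, which gave 15 of the 45037 probe sets and 9 of the 18193 genes named by 1 symbol. Affymetrix Mouse Genome 430 2.0 arrays had measured RNA from bone marrow cells that were CD45.1+ and LKS+, that is lineage-negative, Kit+ and Sca-1+, a gate that holds hematopoietic stem and multipotent progenitor cells. The mice were C57BL/6 and 8 weeks old, and the series asks how normal LKS+ cells change over the course of acute myeloid leukemia. The 3 groups were control mice, leukemic mice at day 7 and leukemic mice at day 14, with 3 arrays each. The CD45.1 gate was common to all groups, and the labels give the controls no day. The leukemia model, any conditioning of the mice and the number of mice behind a sample are not given in the sources used here, so p-values measure the spread between these samples.

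In the integrated stress response, kinases that sense misfolded protein, amino acid shortage, double-stranded RNA or heme shortage phosphorylate the translation factor eIF2. General protein synthesis then falls while the mRNA of ATF4 is translated better, so that ATF4 protein can rise without a change in its mRNA. ATF4 is a bZIP transcription factor that pairs mainly with C/EBP family proteins and switches on amino acid supply, feedback and, through CHOP, cell death genes. In hematopoietic stem cells this pathway is known for guarding the pool against stress in protein synthesis. Arrays read the mRNA step alone, and neither eIF2 phosphorylation nor ATF4 protein was measured here.

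The site that ATF4 and its C/EBP partners bind is the C/EBP-ATF response element, searched here as TGATGNAA on both strands. Promoter windows from RefSeq (GRCm38.p6) ran from 250 bases before to 50 bases after each start, 32851 windows in all, and 10 of them belonged to the 9 genes, Atf5 having 2. The element stood in 3.97% of all windows and in 1 window each of Asns, Chac1 and Trib3. The cAMP response element TGACGTCA, bound by ATF and CREB factors, stood in 1.79% of all windows and in that of Ppp1r15a. The AP-1 site TGACTCA, which AP-1 proteins and several ATF factors bind, stood in 5.20% of all windows and in that of Ddit3. By their letters, matches of different motifs cannot overlap. The stretches are shown because they are the only matches among the 9 genes, and they set genes with different behaviour side by side. Capitals mark the match, the 5′ to 3′ letters are those of the gene's own strand, and positions count from the start.
Asns, chr6:7693210-7693258 (minus strand), element at -23 to -16: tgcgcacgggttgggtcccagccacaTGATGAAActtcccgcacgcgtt
Chac1, chr2:119351023-119351082 (plus strand), element on the opposite strand at -193 to -186: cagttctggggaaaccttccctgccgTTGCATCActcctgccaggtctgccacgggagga
Trib3, chr2:152344028-152344057 (minus strand), element on the opposite strand at 15 to 22: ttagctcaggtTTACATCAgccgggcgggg
Ppp1r15a, chr7:45526269-45526306 (minus strand), cAMP response element at -12 to -5: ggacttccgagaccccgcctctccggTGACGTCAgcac
Ddit3, chr10:127290543-127290583 (plus strand), AP-1 site at -242 to -236: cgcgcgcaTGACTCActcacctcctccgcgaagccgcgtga
A match is a run of letters and not a shown site of binding. For Atf4, Atf5, Sesn2 and Ddit4 the result says only that these letters do not occur in these windows. The same holds for the C/EBP-ATF response element in the windows of Ddit3 and Ppp1r15a.

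The deposited values were linear intensities. A gene was read through its probe set with the highest mean, and it was tested if that set exceeded its array's 40th percentile (intensities of 14.1 to 15.2) on 3 or more arrays. All 9 genes met this, as did 14 of the 15 probe sets. Differences are on the log2 scale from limma, fitted over 12652 genes with 3 groups in 1 model, and calls were made where the p, adjusted by Benjamini-Hochberg over all of them, was below 0.05. Arrays of the same group correlated at 0.994 to 0.997, control with day 7 arrays at 0.990 to 0.995, and day 14 arrays with the others at 0.965 to 0.981. For the labelled cell type, 10 of 12 LKS+ markers were on the array under their own symbol, and all 10 were above the filter. All 9 myeloid and all 6 megakaryocyte and platelet markers on the array passed it too, so passing does not identify the cell type. Kit averaged 1720.4 in controls, 1453 at day 7 and 1696 at day 14, and neither difference from control was called. The symbol of Sca-1, Ly6a, was not found.

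Against control, 2 of the 9 genes rose at day 7 and 4 rose at day 14, and none was called lower at either time. At day 7 these were Atf4 and Ddit3, where 2.21% of all tested genes rose and 1.13% fell. At day 14 they were Atf4, Ddit3, Chac1 and Ppp1r15a, where 18.3% of all tested genes rose and 34.1% fell. From day 7 to day 14 Atf4, Ddit3, Trib3 and Chac1 rose, beside 17.4% of all tested genes that rose and 33.6% that fell. The median change of the 9 genes was 0.07 at day 7 and 0.35 at day 14 against control, where the median of all tested genes was 0.01 and -0.06. An F-test for any difference among the 3 groups passed for 5 genes (Atf4, Ddit3, Trib3, Chac1 and Ppp1r15a) and for 54.8% of all tested genes. Without adjustment, p was below 0.05 for 5 of the 9 genes at day 7, for 4 at day 14 against control and for 6 at day 14 against day 7, where this held for 19.8%, 58.7% and 57.3% of all tested genes. In either direction, 3.34%, 52.4% and 51.0% of all tested genes were called in these comparisons. Asns, the amino acid synthetase that is a classic ATF4 target, changed in no comparison.

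**Figure D1:**
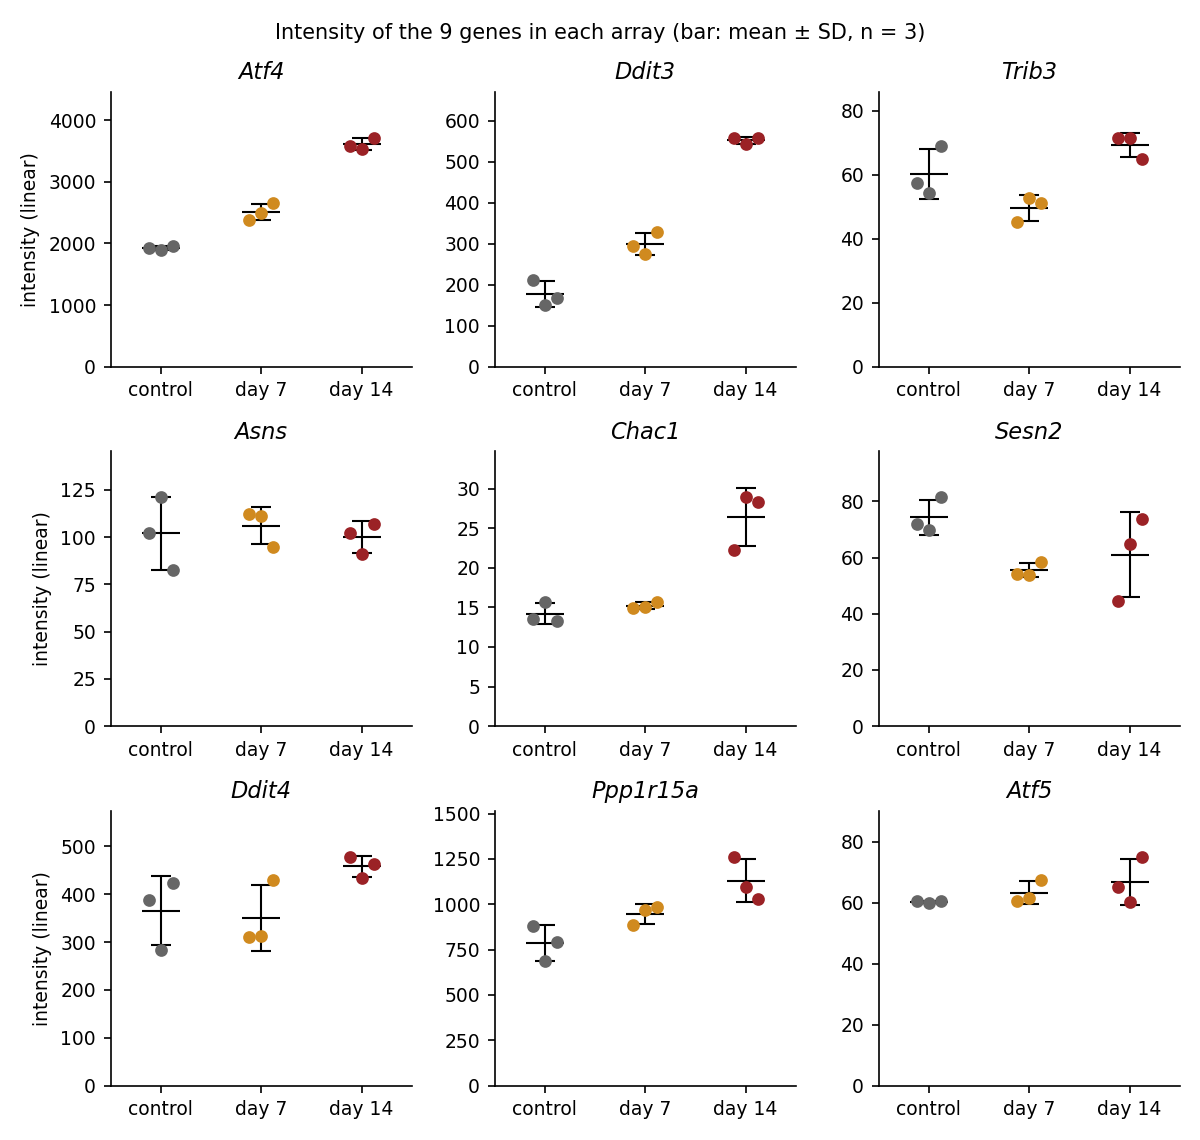
Linear intensity (vertical axis, from 0, with its own range in each panel) of the 9 genes in the 3 control, 3 day 7 and 3 day 14 arrays, each through its brightest probe set; points are arrays and bars are mean ± SD. Atf4 and Ddit3 climb without overlap from control (1924 and 177 on average) to day 7 (2511 and 299) to day 14 (3608 and 552), Chac1 is higher at day 14 alone, and the arrays of Asns overlap throughout.

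Atf4, the transcription factor at the centre of the response, was read by probe set 1448135_at. Its intensities were 1928, 1891 and 1953 in the control arrays, 2386, 2489 and 2657 at day 7, and 3582, 3527 and 3714 at day 14. The 3 groups did not overlap, and every day 7 array stood between every control and every day 14 array. The means were 1924 ± 31.6, 2511 ± 136 and 3608 ± 95.8 (SD, n = 3). Against control Atf4 was 1.30-fold higher at day 7 (log2 change 0.38, SE 0.06, adjusted p = 0.013) and 1.87-fold higher at day 14 (log2 change 0.91, 95% interval 0.77 to 1.04, adjusted p = 6.4e-06). Day 14 exceeded day 7 by 0.52 (adjusted p = 7.7e-05). The day 7 call did not hold without day 7 replicate 2 (log2 change 0.39, adjusted p = 0.058), without day 7 replicate 3 (0.34, adjusted p = 0.050) or when the mean of its probe sets stood for the gene (0.19, adjusted p = 0.20).

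A second Atf4 probe set, 1438992_x_at, gave another course. Its suffix marks a set in which some probes may bind other transcripts. It read 536, 550.5 and 457 in controls, 527, 550.5 and 482 at day 7, and 1361, 1431 and 908 at day 14. Control and day 7 overlapped, all 3 day 14 arrays were above both, and day 14 replicate 3 was the lowest of its group. With every probe set as a row of its own, its change was 0.02 at day 7 (adjusted p = 0.97) and 1.24 at day 14 (SE 0.16, adjusted p = 2.8e-04). The rise of Atf4 at day 14 thus passed the test in both probe sets, and the one at day 7 in 1 of them. The remaining Atf4 set, 1439258_at, stayed below the filter in all 9 arrays at 7.11 to 11.8 and was not tested.

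Ddit3 encodes CHOP, a C/EBP family factor that ATF4 induces and that promotes cell death under lasting stress. Through 1417516_at it read 212, 149.6 and 168 in controls, 294, 275 and 328 at day 7, and 557, 542 and 558 at day 14. The groups did not overlap, and the 3 day 14 arrays lay closest together (177 ± 32.3, 299 ± 27.0 and 552 ± 8.78). Ddit3 was 1.71-fold higher at day 7 (log2 change 0.77, 95% interval 0.51 to 1.03, adjusted p = 0.012) and 3.16-fold higher at day 14 (log2 change 1.66, 95% interval 1.40 to 1.92, adjusted p = 8.0e-06), the largest change of the 9 genes in each of these comparisons. From day 7 to day 14 it rose by a further 0.89 (adjusted p = 1.6e-04). The day 7 call did not hold without control replicate 3 (0.74, adjusted p = 0.052), with no filter on dim genes (adjusted p = 0.078) or over the mean of its probe sets (0.38, adjusted p = 0.058).

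The other Ddit3 set, 1443897_at, moved less. It read 159, 137 and 196 in controls, 147, 183 and 157 at day 7, and 182, 240.1 and 226 at day 14, and each pair of groups overlapped. Its change at day 14 was 0.40 (SE 0.15, adjusted p = 0.049), against 1.66 for 1417516_at, and -0.01 at day 7 (adjusted p = 0.98). That call was lost on leaving out any 1 of 7 arrays, all but control replicate 3 and day 14 replicate 1, for example control replicate 2 (0.28, adjusted p = 0.16) and day 14 replicate 2 (0.32, adjusted p = 0.15). The size of the Ddit3 rise at day 14 therefore rests on 1417516_at, while the direction was the same in both sets.

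Atf5, a bZIP relative of ATF4 that is itself translated under eIF2 phosphorylation, showed no called change. Its intensities were 60.5, 59.9 and 60.5 in controls, 60.5, 61.7 and 67.6 at day 7, and 65.3, 60.1 and 75.1 at day 14. The groups overlapped, and the spread was smallest in controls. Its change at day 14 was 0.14 (95% interval -0.04 to 0.33, adjusted p = 0.17). With arrays set to one 75th percentile it was 0.26 (adjusted p = 0.026), and with quantile normalization also 0.26 (adjusted p = 0.031).

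Ppp1r15a and Trib3 act as brakes. Ppp1r15a encodes GADD34, the induced regulator that leads phosphatase PP1 to eIF2 and lets translation restart. It read 880.3, 686 and 790.4 in controls, 885, 971 and 983 at day 7, and 1262, 1096 and 1030.3 at day 14. The groups did not overlap, although the highest control array and the lowest day 7 array were nearly level. Its mean went from 786 ± 97.3 to 946 ± 53.4 and 1129.5 ± 119.5. The log2 change was 0.27 at day 7 (adjusted p = 0.18) and 0.53 at day 14 (SE 0.10, adjusted p = 0.0020), a 1.44-fold rise. Day 14 against day 7 gave 0.25 (adjusted p = 0.065), which passed under each other scaling of the arrays (0.29 and 0.38, adjusted p = 0.049 and 0.016). It also passed on leaving out control replicate 1 (0.25, adjusted p = 0.049), control replicate 2 (0.25, adjusted p = 0.039) or day 14 replicate 3 (0.32, adjusted p = 0.044).

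Trib3, a pseudokinase that ATF4 and CHOP induce and that restrains ATF4, rose between the days and was not called against control on either. Probe set 1456225_x_at read 57.4, 54.3 and 69.0 in controls, 45.1, 52.7 and 51.0 at day 7, and 71.4, 71.5 and 64.9 at day 14. All 3 day 7 arrays were below all control and all day 14 arrays, and the day 14 arrays overlapped with the controls. Its change was -0.27 at day 7 (SE 0.10, adjusted p = 0.16) and 0.21 at day 14 (adjusted p = 0.098), neither called, while the rise of 0.48 from day 7 to day 14 was called (adjusted p = 0.0022). Probe set 1426065_a_at ran the same way at -0.19 (adjusted p = 0.21), 0.17 (adjusted p = 0.11) and 0.36 (adjusted p = 0.0053). The day 14 change from control passed without control replicate 3 (0.31, adjusted p = 0.015), with quantile normalization (0.32, adjusted p = 0.018), with one 75th percentile (0.33, adjusted p = 0.020) and with array weights (0.24, adjusted p = 0.039).

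The 2 target enzymes differed from each other. Chac1, which degrades glutathione, read 13.5, 15.7 and 13.3 in controls, 14.9, 15 and 15.7 at day 7, and 22.2, 28.9 and 28.3 at day 14. Control and day 7 overlapped, and every day 14 array was above them. The gene was dim: 1 of 3 control arrays exceeded the filter level, against 3 of 3 at day 7 and at day 14. Its change was 0.10 at day 7 (adjusted p = 0.64), and it was 1.86-fold higher at day 14 (log2 change 0.89, 95% interval 0.66 to 1.13, adjusted p = 1.0e-04) and 1.73-fold higher at day 14 than at day 7 (adjusted p = 1.7e-04). With an offset of 32 added in place of a floor the day 14 change was 0.34, so the fold depends on how low values are treated.

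Asns, which makes asparagine and whose window carries the element next to the start, read 102, 121 and 82.4 in controls, 112, 111 and 94.9 at day 7, and 102, 90.9 and 107 at day 14. All groups overlapped, and control replicates 2 and 3 held the highest and the lowest value of all 9 arrays. Its change at day 14 was -0.01 (95% interval -0.30 to 0.28, adjusted p = 0.95), so a rise as large as that of Chac1 or Ddit3 lies outside the interval. Probe set 1433966_x_at gave 0.13 at day 7 (adjusted p = 0.69) and -0.03 at day 14 (adjusted p = 0.88). Chac1 and Asns thus carried the same kind of element in their windows and differed in their array values.

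Sesn2 and Ddit4 (also called REDD1) are stress-induced brakes of mTORC1, the kinase complex that drives growth. Sesn2, through 1425139_at, read 72.1, 69.8 and 81.5 in controls, 54.3, 53.9 and 58.4 at day 7, and 44.4, 64.7 and 73.9 at day 14. The day 7 arrays lay below all controls without overlap, and the day 14 arrays were the most scattered, with a replicate SD of 0.38 on the log2 scale beside a median of 0.10 over all tested genes. Its change of -0.42 at day 7 (SE 0.16, adjusted p = 0.17) and of -0.32 at day 14 (adjusted p = 0.11) did not pass. The day 7 value passed without day 14 replicate 1 (adjusted p = 0.030), in a fit of the 2 groups alone (adjusted p = 0.042) and with array weights (-0.41, adjusted p = 0.018), and the day 14 value without day 14 replicate 3 (-0.47, adjusted p = 0.023). Without day 14 replicate 1, day 14 against day 7 passed as a rise (0.32, adjusted p = 0.019). The other set, 1451599_at, gave -0.13 (adjusted p = 0.48) and -0.05 (adjusted p = 0.66) against control.

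Ddit4 read 387, 284 and 423 in controls, 309.7, 312 and 429 at day 7, and 478, 434 and 462 at day 14. Controls and day 7 overlapped widely, and each day 14 array was above every other array. Its day 14 change was 0.35 against control (SE 0.16, adjusted p = 0.086) and 0.40 against day 7 (adjusted p = 0.053), which did not pass. Against control it passed without control replicate 3 (0.46, adjusted p = 0.042) and with one 75th percentile (0.47, adjusted p = 0.032). Against day 7 it passed in 7 of the 12 alternatives, and without control replicate 2, control replicate 3 or day 7 replicate 3 (0.40, 0.40 and 0.56).

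**Figure D2:**
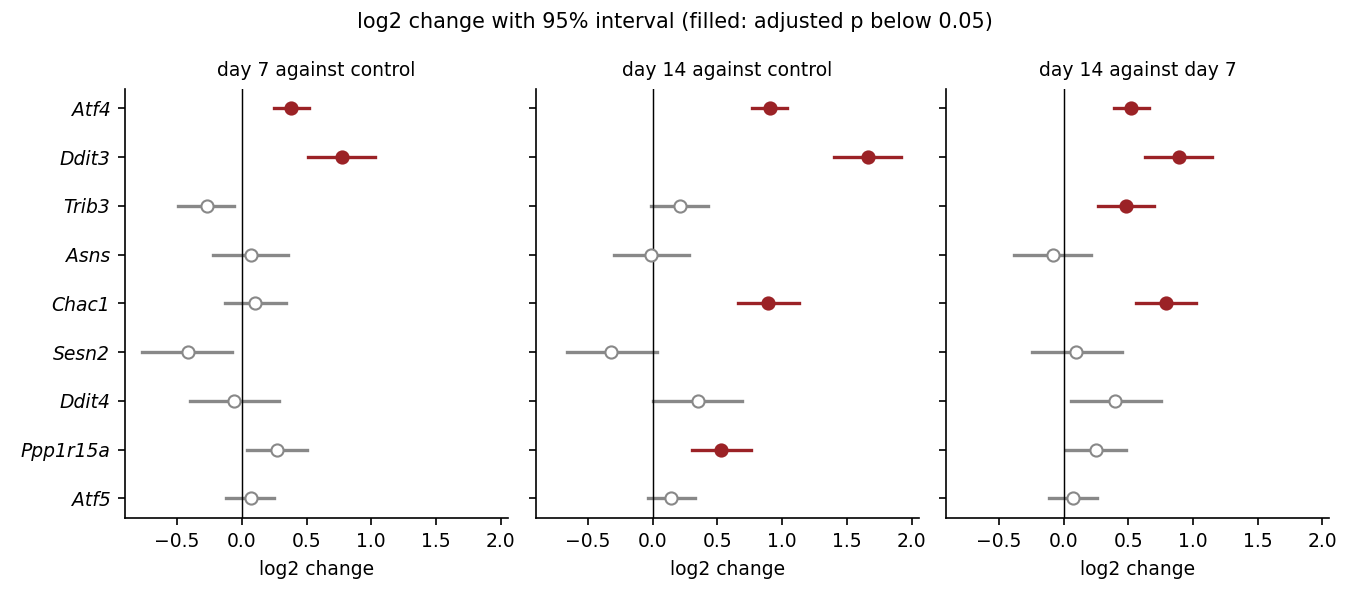
Log2 change (horizontal axis) with its 95% interval for each of the 9 genes in the 3 comparisons, from limma over all tested genes; filled points have an adjusted p below 0.05. Ddit3 has the largest change in each comparison (0.77, 1.66 and 0.89), no filled point lies below 0, and the Asns intervals cover 0 in all panels.

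Counted without a model, the arrays of the compared groups did not overlap for 5 of the 9 genes at day 7 (3 higher, 2 lower), where this held for 26.5% of all tested genes. At day 14 against control it held for 5 of 9, all higher, beside 58.1% of all tested genes, and at day 14 against day 7 for 6 of 9, all higher, beside 60.3%. With each probe set as a row of its own, 2 of the 14 tested sets were called at day 7, 6 at day 14 against control and 7 at day 14 against day 7, all higher. The shares over all 27665 tested probe sets were 3.39%, 44.4% and 42.2%. The share of members called at day 14 was thus near that of all features, and their direction was the less common one: 34.9% of the genes called at day 14 against control were higher, a split that became 45.1% with quantile normalization and 57.4% with one 75th percentile. Against day 7 the same split was 34.1%, 44.0% and 57.8%. These scalings moved the median of all genes at day 14 from -0.06 to 0.00 and 0.06, and the day 14 calls of Atf4, Ddit3, Chac1 and Ppp1r15a held under both.

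**Figure D3:**
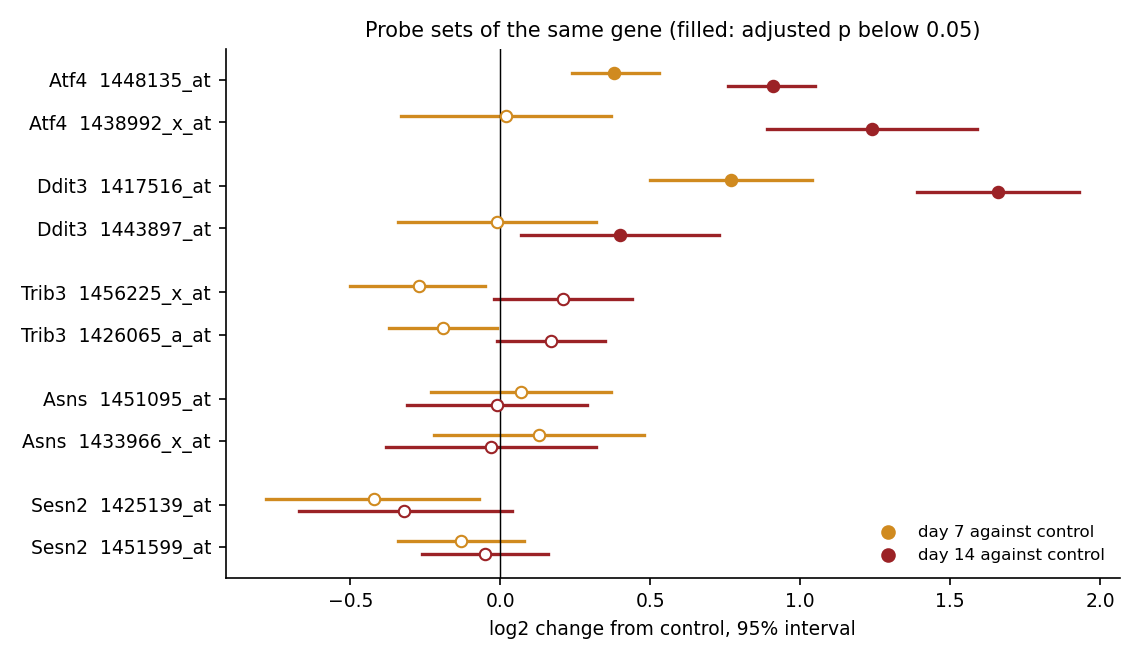
Log2 change from control (horizontal axis) with its 95% interval for genes with more than 1 tested probe set, at day 7 and at day 14; filled points have an adjusted p below 0.05 over all probe sets. The 2 Atf4 sets part at day 7 (0.38 and 0.02) and both rise at day 14 (0.91 and 1.24), the 2 Ddit3 sets differ in size (1.66 and 0.40), and the Trib3 sets run alike.

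Across the 9 arrays, log2 intensity of Atf4 correlated with that of Ddit3 at r = 0.98, with Chac1 at 0.90 and with Ppp1r15a at 0.88. Atf4 with Trib3 gave 0.46, with Asns -0.10 and with Sesn2 -0.42. The arrays fall into 3 groups and share their preparation, so these values mostly repeat the group differences and are a description. The tested genes most like Atf4 were Trpv4, Mob4 and Trp53inp2 (r = 0.992, 0.991 and 0.990), and those most like Ddit3 were Pde4b, Bcl10 and Bhlhe40 (0.996, 0.993 and 0.987). For Chac1 they were Socs6, Runx1 and Washc4 (0.992, 0.988 and 0.981), and for Ppp1r15a Stpg3, Sertad1 and Dnajb4 (0.982, 0.976 and 0.972). An r of at least 0.95 with Atf4 was reached by 155 genes, 1.23% of those tested, and with Asns or Sesn2 by none.

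The pathway around the 9 genes was described through 12 lists, 167 of whose genes were tested. Some genes, Herpud1 among them, stand in several lists, so the list counts are not independent of each other. At day 7, 6 of these genes (3.59%) were called, a share near the 3.34% of all tested genes: Crem (0.73), Trib1 (0.63), Slc3a2 (0.30), Mthfd2 (0.48) and Vegfa (0.73) rose and Wfs1 fell (-0.46), with adjusted p between 0.026 and 0.049. Crem encodes a cAMP-responsive factor, Trib1 a relative of Trib3, Slc3a2 the shared chain of several amino acid transporters, Mthfd2 a mitochondrial folate enzyme and Vegfa a growth factor that ATF4 can induce. Each of these 6 calls was lost on leaving out between 5 and 8 of the 9 arrays in turn. None of the 4 eIF2 kinases was called at day 7, Eif2ak2 coming nearest (-0.56, adjusted p = 0.079).

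At day 14 against control 18.3% of all tested genes rose and 34.1% fell, and the list counts that follow are to be read beside these shares. The eIF2 kinases and their regulators gave 1 higher and 3 lower of 8 tested. Eif2ak2, the kinase PKR that senses double-stranded RNA, fell from 458 ± 20.4 in controls to 219 ± 53.5 (log2 change -1.09, adjusted p = 2.9e-04). Eif2ak1, the heme-sensing kinase, was called lower in its brightest probe set (-0.51, adjusted p = 3.4e-04) and higher in another (0.31, adjusted p = 0.012). Its other tested sets were not called (0.14 and -0.12) and the mean of its sets gave 0.02, so no direction can be given for it. Eif2ak3 (PERK) and Eif2ak4 (GCN2) were not called, at -0.01 (adjusted p = 0.92) and -0.13 (adjusted p = 0.15). Impact, an inhibitor of GCN2 signalling, was called higher in its brightest probe set (0.76), while its other sets were called lower (-1.05 and -0.88), so no direction can be given for it.

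Of 12 genes of eIF2, its exchange factor eIF2B and the eIF2 phosphatase, 3 rose and 6 fell at day 14, and 3 fell when arrays were set to one 75th percentile. Ppp1r15b, the constantly present counterpart of Ppp1r15a, rose from 619.6 ± 42.7 to 1057 ± 34.4 (0.77, adjusted p = 2.7e-05). The catalytic subunits of PP1 differed: Ppp1cb rose (0.60, adjusted p = 7.7e-04), Ppp1ca fell (-0.26, adjusted p = 0.0023) and Ppp1cc was not called (-0.12, adjusted p = 0.092). The eIF2B subunits Eif2b4 (-0.56), Eif2b3 (-0.49) and Eif2b1 (-0.42) fell, with adjusted p between 6.1e-04 and 0.0040. Both regulators of the eIF2 phosphatase were thus higher at day 14.

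Among 10 bZIP partners of ATF4 and CHOP, 6 rose and 2 fell at day 14, with a median of 0.45 beside -0.06 over all tested genes. Atf3, itself induced by ATF4, rose from 224 ± 90.8 to 638 ± 122 (1.58, adjusted p = 9.0e-04), and Cebpb from 817 ± 105 to 1535 ± 142 (0.91, adjusted p = 1.7e-04). Jdp2 (0.61) and Cebpa (0.52) also rose. Cebpg, the small C/EBP partner of ATF4, fell (-0.38, adjusted p = 3.6e-04), as did Batf (-0.65). Of 9 other ATF and CREB factors 3 rose and 1 fell: Crem rose from 46.6 ± 1.04 to 124 ± 8.32 (1.41, adjusted p = 1.3e-04), and Creb3 fell (-0.33). Of 9 genes of the tribbles family and ATF4 turnover, Trib1 (0.80), Egln3 (0.30) and Csnk1a1 (0.24) rose and Trib2 fell (-1.04, adjusted p = 0.036). The Trib2 call was lost in 5 of 11 alternatives, among them both other scalings, and without day 7 replicate 3, day 14 replicate 1 or day 14 replicate 2, and the Egln3 call without control replicate 1 or either of day 14 replicates 2 and 3. Over all arrays left out their changes ran from -1.39 to -0.50 and from 0.23 to 0.39.

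The targets of ATF4 did not move as one group. Of 24 other targets of ATF4 and CHOP, 13 rose and 6 fell at day 14, with a median of 0.25. Vegfa rose from 97.3 ± 22.5 to 444 ± 76.9 (2.20, adjusted p = 1.1e-05). Bbc3, the death gene PUMA, rose from 62.0 ± 6.27 to 137 ± 16.8 (1.14, adjusted p = 2.5e-05), and Sqstm1, an autophagy receptor, from 529 ± 54.6 to 1144 ± 84.3 (1.11, adjusted p = 2.3e-05). Xpot, a tRNA exporter, and Sesn1, a relative of Sesn2, fell (-0.44 and -0.54, adjusted p = 4.1e-04 and 0.0013), as did Cars (-0.50, adjusted p = 0.0013). Ppargc1a, a dim gene, fell from 29.1 ± 2.53 to 14.7 ± 1.23 (-0.99, adjusted p = 5.3e-05), a call lost without control replicate 2 or control replicate 3. Over all arrays left out its change ran from -1.02 to -0.23. Its day 14 against day 7 call was lost in the same runs, although that change (-0.57, range -0.67 to -0.24) contains no control array. The brightest probe set is chosen anew in each run, so these runs likely read the gene through another set.

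Among the amino acid supply genes, the enzymes and synthetases called at day 14 all fell, and the called transporters moved both ways. Of 13 enzymes of serine, one-carbon, proline and transsulfuration metabolism none rose and 9 fell at day 14, with a median of -0.41. Between day 7 and day 14, 11 of them fell, beside 33.6% of all tested genes. Phgdh, the first enzyme of serine synthesis, went from 2808 ± 74.2 in controls and 2747 ± 99.8 at day 7 to 1793 ± 119 at day 14 (-0.65 against control, adjusted p = 4.8e-05). Mthfd1 (-0.92), Got1 (-0.60) and Psph (-0.44) fell too. Of 19 cytosolic aminoacyl-tRNA synthetases, which load amino acids onto tRNA, none rose and 16 fell, with a median of -0.43. Rars went from 499 ± 27.1 to 295 ± 21.3 (-0.76, adjusted p = 3.0e-05), and Mars1 (-0.80), Hars (-0.65) and Lars (-0.48) fell. Over the 12 alternatives the falling counts ran from 7 to 11 and from 14 to 16. Of 10 amino acid transporters Slc3a2 (0.57, adjusted p = 4.4e-05) and Slc38a2 (0.42, adjusted p = 0.0015) rose and Slc1a5 (-0.52) fell. Slc3a2 was called higher in all 3 comparisons, as Atf4 and Ddit3 were, and the day 7 call of each was lost in some runs.

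The ATF6 and XBP1 branches of the unfolded protein response, which run beside the ATF4 branch, gave 5 higher and 5 lower of 31 genes at day 14, and 12 higher when arrays were set to one 75th percentile. Dnajb9 rose from 793 ± 30.2 to 1334 ± 154 (0.74, adjusted p = 7.2e-05), and Herpud1 (0.56), Hspa5 (0.35), the chaperone BiP, and Derl1 (0.31) rose. Sdf2l1 (-0.60), Derl2 (-0.40) and Creld2 (-0.38) fell. Pdia6 was called lower in its brightest set (-0.41) and higher in another (0.55), so no direction can be given for it.

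**Figure D4:**
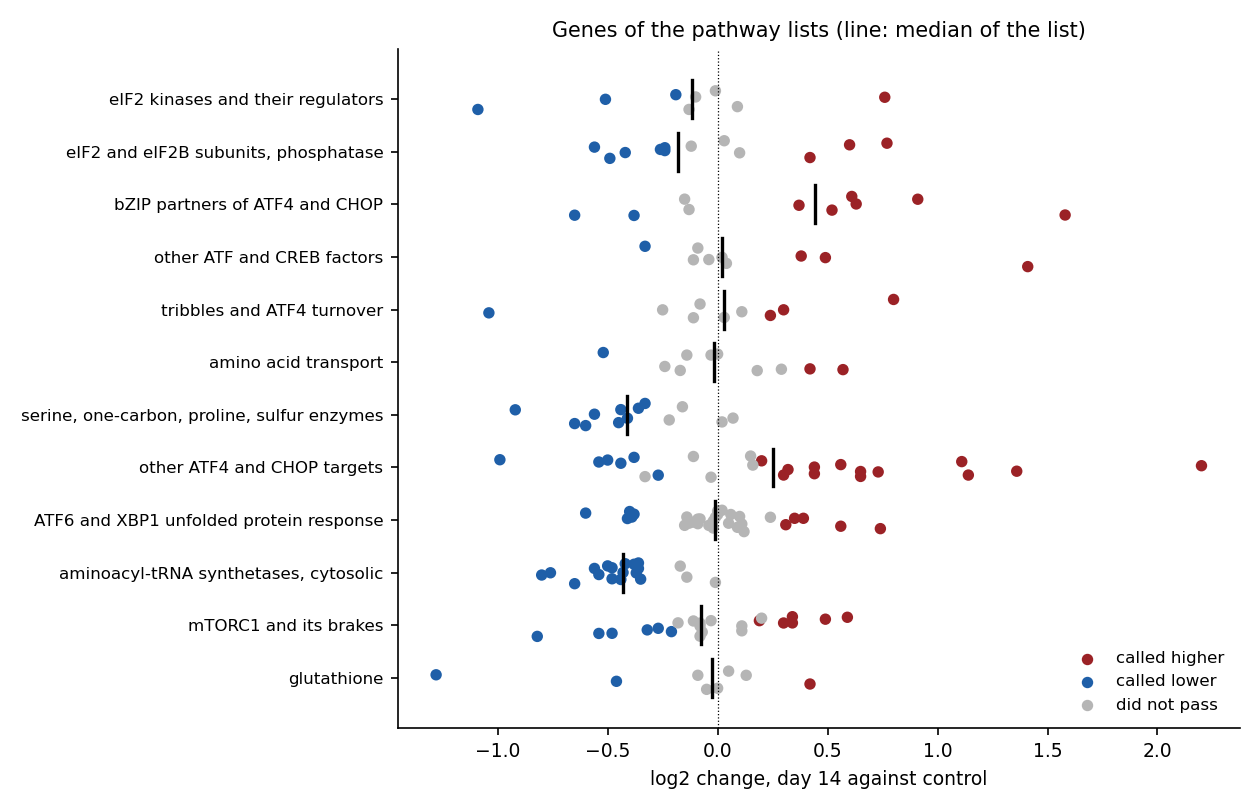
Log2 change at day 14 against control (horizontal axis) of each tested gene of 12 pathway lists; red and blue points were called higher and lower, grey points did not pass, and the black bar is the list's median. The bZIP partners (median 0.45) and other ATF4 and CHOP targets (0.25) lie mostly right of 0, while the aminoacyl-tRNA synthetases (-0.43) and the serine and one-carbon enzymes (-0.41) lie mostly left of it.

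Markers of other cell types moved with both days. At day 7 the plasma cell gene Jchain went from 11 in controls to 96.5 (log2 change 3.39, adjusted p = 0.0045), the myeloid gene Elane from 65.3 to 171 (1.40, adjusted p = 0.015) and the platelet gene Gp1bb from 22.6 to 32.2 (0.52, adjusted p = 0.013), and no other marker of these types was called. Control values of Jchain ran from 5.36 to 21.4, the lowest under the floor of 5.81, so its fold depends on the floor. At day 14, of 6 megakaryocyte and platelet markers 4 rose, and their summed intensity was 561 to 649 in controls, 704 to 759 at day 7 and 1486 to 1767 at day 14. Of 9 tested myeloid markers 3 rose (Elane 1.80, Csf1r 1.09 and Mpo 0.32) and 2 fell, the neutrophil genes S100a8 (-0.99) and S100a9 (-0.75). Their sums were 4906 to 6073, 5561 to 6633 and 6434 to 8252. Mpo made up most of these sums (3535 on average in controls and 4427 at day 14), and S100a8 and S100a9 weighed little (16.9 and 21.5 at day 14). Of 3 tested T cell markers 2 rose, with sums of 78.0 to 88.4 in controls, 83.6 to 88.5 at day 7 and 100.1 to 108 at day 14, and Cd3d and Cd3g were below the filter. Of 4 tested B and plasma cell markers 2 rose and 1 fell, with sums of 193 to 206 in controls, 275 to 301 at day 7 and 199 to 231 at day 14. Jchain was among those that rose, at 70.9. Of 2 tested erythroid markers none was called (94.4 to 244, 119 to 129 and 104 to 119), Hba-a1 and Alas2 being below the filter, and of 3 tested stromal markers 1 rose (161 to 173, 149.6 to 175 and 195 to 210.4), Col1a1 and Cdh5 being below it. Among the LKS+ markers Gata2 rose (0.43), and Cd48 (-0.85) and Procr (-0.43) fell. The part of these markers in the changes of Atf4 and Ddit3 at both days and of Chac1 and Ppp1r15a at day 14 was not tested, and in sorted bulk samples fewer cells of a type and less RNA per cell cannot be told apart.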

How the data were processed

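The 9 arrays held 1 value per probe set; per the series' design text in the labels, RNA was amplified over 2 cycles and the authors normalized signals with the Affymetrix software version 5.0. The deposited unit was a linear intensity. Values equal in every deposited digit in at least 2 arrays occurred in 51.64% of probe sets and in 5 of the 15 member sets, so the normalization is not certain. Values were floored at the 20th percentile (5.81) and taken to log2. Probe sets were named by the platform annotation (34945 with 1 symbol, 932 with several, 9160 with none), and all 9 genes matched RefSeq by Entrez ID and symbol. limma 3.58.1 in R 4.3.3 gave the tests, checked on simulated data. Groups came from the sample labels, and no label names a batch. The precision is limited by 3 arrays a group.

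The 9 genes, the lists and the rule for named genes (all 9; per list and comparison up to 4 called per direction with the smallest p, or 2 where none was called; the 3 genes most like each) were chosen with earlier results of these data known. The cAMP response element and AP-1 searches were added later. Alternatives varied the scaling, floor, filter, probe set choice, replicate block, arrays fitted, variance prior and array weights, and left out each array in turn.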

Additional observations from a re-analysis of the deposited data

Results flagged for a closer look

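For 4 of the 9 genes the change from control differed between the days in the test of the difference itself, which is day 14 against day 7 in limma's fit. The same test passed for 51.0% of all tested genes, so the number of members is not apart from the rest. The log2 change was larger at day 14 by 0.52 for Atf4 (adjusted p = 7.7e-05), by 0.89 for Ddit3 (adjusted p = 1.6e-04) and by 0.79 for Chac1 (adjusted p = 1.7e-04), with all 3 day 14 arrays above all 3 day 7 arrays for each. For Trib3 the difference was 0.48 (adjusted p = 0.0022), from -0.27 at day 7 to 0.21 at day 14, again higher in 3 of 3 arrays, and its 2 probe sets ran alike. Single arrays were not tested for standing apart, since each group holds 3.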

How the results depend on the processing

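The day 14 calls of Atf4, Ddit3, Chac1 and Ppp1r15a, and the day 14 against day 7 calls of Atf4, Ddit3, Trib3 and Chac1, held in every alternative in which the gene was tested (Chac1 in 11, the others in 12) and without each of the 9 arrays. The count of genes called at day 7 was 2, and it was 1 with no filter on dim genes, 0 when a gene's probe sets were averaged and 1 to 3 without each array in turn, falling to 1 without control replicate 3 and without either of day 7 replicates 2 and 3. Over probe sets it was 2, and 0 with no filter and 0 to 3 without each array: 0 without control replicate 3 and without day 7 replicates 1 or 3, 1 without day 7 replicate 2. Both counts were 3 without day 14 replicate 1, where Sesn2 joined. The fewer calls with no filter come with more genes tested. With one 75th percentile the day 14 count against control was 7 in place of 4 genes (Trib3, Ddit4 and Atf5 joined) and 10 in place of 6 probe sets, as the day 14 arrays, lower at that percentile (115 to 119 against 127 to 130.2), are scaled up. Over all genes the day 7 count was 423, and 59 with no filter, 703 with an offset of 32, 674 with a trended and robust prior, 2181 with array weights, 280 with the replicate block and 79 to 553 without each array.

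No pairing of the samples by replicate number was visible, though a weak one could be missed. Among 9 same-numbered pairs 1 correlated over 0.1 (-0.19 to 0.12), and 1 of 9 arrays correlated best with its own number. With the replicate block the counts were 2 genes at day 7, 5 at day 14 against control and 5 at day 14 against day 7, Ddit4 joining in both.

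With a gene's probe sets averaged, 3 list genes changed sign at day 14 against control: Eif2ak1 (0.02), Impact (-0.39) and Pdia6 (0.07). Against day 7 Impact (-0.10) and Pdia6 (0.01) did so. Of the 62 list genes named as called at day 14 against control, 49 kept their call in every run. Dim genes such as Chac1 are limited by signal over background, and their folds depend on the floor.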

Other observations

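The mTORC1 list, which Sesn2 and Ddit4 act on, gave 6 higher and 6 lower of 22 tested genes at day 14 against control, with a median of -0.08. Of all tested genes 18.3% rose and 34.1% fell there, 52.4% in either direction, with a median of -0.06. Deptor, an inhibitor within the complex, rose from 279 ± 22.6 to 422 ± 54.0 (0.59, adjusted p = 7.8e-04), and Fnip1 (0.49) and Flcn (0.34), partners in amino acid sensing at the lysosome, rose as well. Nprl2, a subunit of the complex that restrains mTORC1 when amino acids are short, fell from 197 ± 8.25 to 111 ± 3.92 (-0.82, adjusted p = 1.3e-05). The lower count was 2 with quantile normalization.

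Among 8 tested glutathione genes 1 rose and 2 fell at day 14 against control, beside 18.3% and 34.1% of all tested genes. Chac2, the slower relative of Chac1, went the other way to Chac1: it fell from 52.2 ± 4.81 to 21.7 ± 3.92 (-1.28, adjusted p = 4.6e-05), while Chac1 rose by 0.89. Gsr, glutathione reductase, rose (0.42, adjusted p = 0.0055), and Ggct fell (-0.46, adjusted p = 0.0058).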
